A study of Mus musculus with 6 samples.

Results

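Start sites of Bcl2 were followed in the mouse pro-B line Ba/F3 with cap analysis of gene expression (CAGE). The method reads RNA from its cap, so that tags pile up into peaks where transcription begins. All peaks of chromosome 1 lying between 108430000 and 108614000 were taken, a window that covers the gene on the mm9 build, and this gave 20 of the 158966 peaks in the data. Bcl2 is read from the minus strand, so 18 of the 20 peaks lie on its strand and 2 on the opposite strand. The gene was chosen by its levels in these same libraries, as one whose starts differed between the groups. Its group differences are therefore given as a description, without a p-value. Peaks carry no gene names in the files, and the name rests on the position of the window alone.

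One group, called FLT3-ITD here, is labelled with the internal tandem duplication of the FLT3 receptor tyrosine kinase (n = 3 libraries). The other, called D835Y here, is titled with that duplication plus D835Y, a substitution in the activation loop of the same kinase (n = 3). Both groups thus carry the duplication, and no library without it is part of the comparison. A further label of the D835Y libraries gives the position of the substitution differently in each of them, and their titles were followed. Every title of either group also holds the letters Co before the replicate number, and no meaning was assumed for them. The strain label names BALB/c for a B cell and again for a myeloma. The medium was RPMI-1640 with serum and antibiotics, and the labels name no cytokine, no age, and no clone or culture for any library. Spread between replicates may therefore be technical. Whether the cells express pro-B markers was not checked, since peaks carry no gene names.

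The Bcl2 protein sits on the outer mitochondrial membrane and keeps cells alive by binding the BH3 segments of pro-apoptotic relatives, so that Bax and Bak cannot permeabilise the membrane. It was found at a translocation breakpoint in follicular lymphoma, and in blood cells its level is a known determinant of survival when cytokines are withdrawn. Signals from cytokine receptors and from FLT3, among them those passed through STAT5, are known to act on members of this family. The gene spans a very long intron between its coding exons, and the human gene is known to be read from more than one promoter.

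The promoter of the annotated gene is shown for its base composition and motifs. The RefSeq window of Bcl2 on GRCm38.p6, chr1:106714241-106714540 on the minus strand, runs from 250 bases before the annotated start to 50 bases after it. It is printed 5′ to 3′ in the direction of the gene, with capitals for every GGGCGG (a GC box, here on either strand, so that it also reads as CCGCCC) and for TGACGT (the core of a cyclic AMP response element).

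Bcl2: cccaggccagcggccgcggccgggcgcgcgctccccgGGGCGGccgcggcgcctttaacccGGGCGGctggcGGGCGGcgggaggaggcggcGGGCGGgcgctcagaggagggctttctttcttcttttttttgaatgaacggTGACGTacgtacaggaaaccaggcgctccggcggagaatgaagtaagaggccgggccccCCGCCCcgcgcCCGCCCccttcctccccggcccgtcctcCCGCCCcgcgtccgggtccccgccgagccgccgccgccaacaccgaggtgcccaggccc

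The window is 76.0% G and C and holds 44 CG dinucleotides, where the median of 32851 such windows of 27025 genes is 52.7% and 7, and 97.8% of them hold fewer CG dinucleotides. GGGCGG occurs 7 times, 4 times in the direction of the gene and 3 times on the other strand, and 35.7% of all windows hold at least 1. TGACGT occurs once, 107 bases before the start, and is held by 7.51% of windows. It was looked for after the sequence had been seen. TATAAA (in 13.6% of windows), CCAAT (37.4%), TGACGTCA (1.79%) and TTCNNNGAA, the spacing bound by STAT5 (8.3%), are not in this window on either strand. None of these motifs overlaps another here. The build of this sequence differs from that of the peaks, so that no motif was placed relative to a peak.

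On the Bcl2 strand most tags fell in 2 peaks. The upstream start, chr1:108610794-108610907, is a broad peak whose listed ends are 113 bp apart. The downstream start, chr1:108610539-108610626, has ends 87 bp apart, and 168 bp separate it from the upstream start. Distances below are counted from the far edge of the upstream start, 108610907, in the direction of transcription, and on that count the downstream start begins at 281 bp. Levels are CPM, tags scaled so that all peaks of a library sum to 1000000. Total tags over all peaks were 5884258 to 13977941 per library, with the fewest in FLT3-ITD replicate 2. A single tag is thus worth 0.0715 to 0.170 CPM.

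The gene as a whole gave more capped 5′ ends in the D835Y libraries. Summed over the 18 peaks of its strand, Bcl2 stood at 42.7, 37.4 and 49.0 CPM in FLT3-ITD replicates 1, 2 and 3 and at 184.5, 189.4 and 159.5 CPM in the D835Y replicates 1, 2 and 3. The groups do not overlap, and the lowest D835Y library is more than 100 CPM above the highest FLT3-ITD library. The means were 43.0 ± 5.8 and 177.8 ± 16.0 CPM (SD, n = 3 each), a fold of 4.13. Pooled tags numbered 1217 and 6459, which gives a ratio of 4.06 (exact 95% interval 3.82 to 4.32, counting error only). Without the downstream start the fold of the sum was 2.98. In these bulk libraries, more RNA per cell cannot be told apart from more cells that express the gene.

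The upstream start was slightly the stronger of the pair in FLT3-ITD libraries, within counting error, and clearly the weaker in the D835Y group. FLT3-ITD libraries had 21.1, 20.1 and 24.5 CPM there, and D835Y libraries 56.3, 61.2 and 50.3 CPM, in the order of their replicate numbers. FLT3-ITD replicate 3 was the highest of its group and D835Y replicate 3 the lowest of its own, and the groups lie well apart. The log2 difference, taken as D835Y minus FLT3-ITD after adding 1 to each CPM value, as for all differences here, was 1.32 (SE 0.12, n = 3 each), and the fold of the means was 2.56. In level, the FLT3-ITD mean of this start exceeded 74.6% of the 19162 peaks tested and the D835Y mean 87.1%. Each tested peak is called a promoter below, as a label only, so that a gene can hold several in this sense. Whether each Bcl2 peak marks a separate promoter was not tested.

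The downstream start carried the larger difference. FLT3-ITD libraries gave 19.8, 16.0 and 22.7 CPM, and D835Y libraries gave 114.0, 113.1 and 95.9 CPM. FLT3-ITD replicate 2, the shallowest library, was the lowest, and D835Y replicate 3 was again the lowest of its group. The means of 19.5 ± 3.4 and 107.7 ± 10.2 CPM differ by a fold of 5.52, and the log2 difference was 2.42 (SE 0.16). Of the 19162 promoters tested, 56 had a larger one, while 332 had a larger one than the upstream start. The median over all of them was 0.05.

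Immediately beyond the downstream start lies another, narrow peak, chr1:108610492-108610501, which begins at 406 bp. It held 7, 2 and 10 tags in the FLT3-ITD libraries (0.68, 0.34 and 0.88 CPM) and 81, 113 and 53 tags in the D835Y libraries (6.80, 8.08 and 5.24 CPM). All 3 D835Y libraries lie several-fold above the highest FLT3-ITD library. Its log2 difference was 2.24 (SE 0.21), and the pooled tags, 19 against 247, give a ratio of 9.94 (exact 95% interval 6.23 to 16.8).

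**Figure D1:**
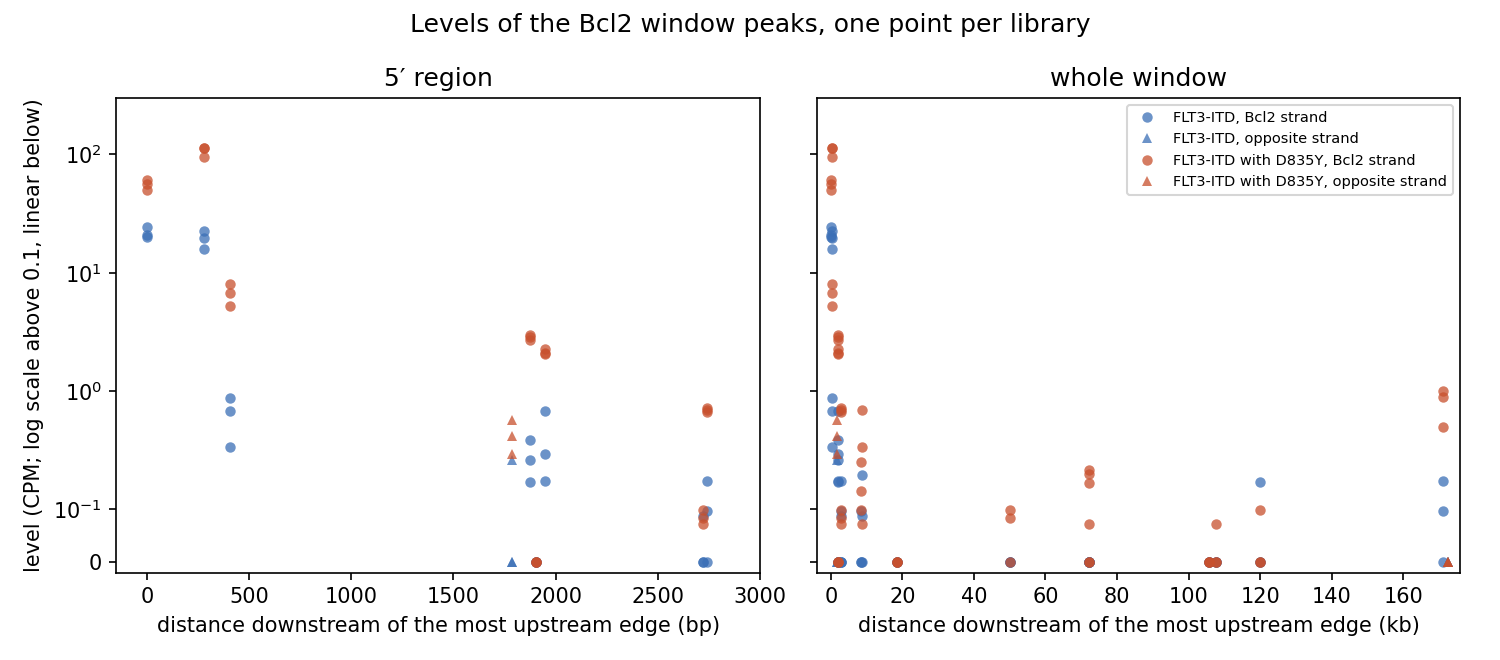
Level in CPM (log scale above 0.1, linear below) of each of the 20 peaks against the distance of its upstream edge from the most upstream edge, in bp for the 5′ region (left) and in kb for the whole window (right), with 1 point per library, circles for the Bcl2 strand and triangles for the opposite strand. Nearly all signal lies in the 3 most upstream peaks, and a low peak about 171 kb downstream stands above its neighbours in the D835Y libraries.

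Farther into the gene, a pair of weak starts was close to the limit of detection in FLT3-ITD cells. The peak chr1:108609006-108609033, at 1874 bp, had 4, 1 and 3 tags in the FLT3-ITD libraries (0.39, 0.17 and 0.26 CPM) and 32, 42 and 29 tags in the D835Y libraries (2.68, 3.0 and 2.87 CPM). The D835Y libraries agree closely with one another here, and none comes near the FLT3-ITD range. Pooled tags were 8 and 103, a ratio of 9.85 (exact 95% interval 4.81 to 23.4). The peak chr1:108608936-108608961, at 1946 bp, had 3, 4 and 2 tags (0.29, 0.68 and 0.18 CPM) against 25, 29 and 23 tags (2.10, 2.07 and 2.27 CPM). Here the highest FLT3-ITD level comes from the shallowest library, where it stands for 4 tags, and the pooled ratio was 6.54 (3.27 to 14.8). Log2 differences were 1.60 (SE 0.08) and 1.20 (SE 0.16), values that the added 1 CPM holds down at such low levels.

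**Figure D2:**
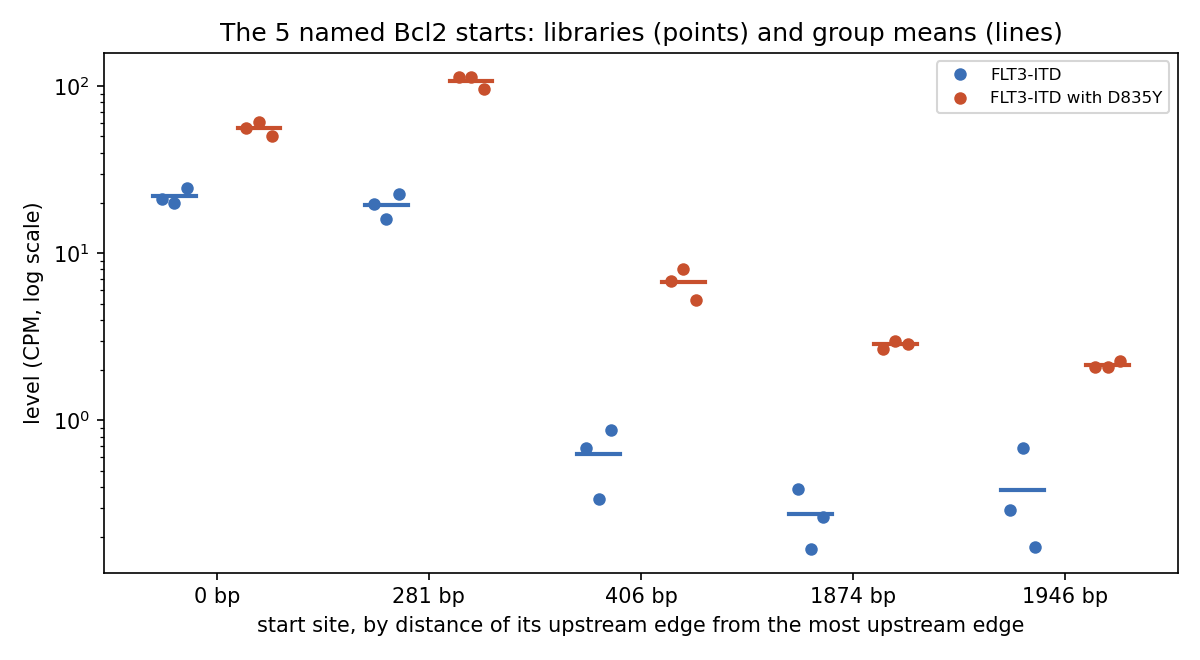
Level in CPM (log scale) of the 5 starts with a mean of at least 1 CPM in either group, ordered by distance from the most upstream edge, with points for libraries (replicates 1 to 3 placed from left to right) and lines for group means (n = 3). At each start all D835Y libraries lie above all FLT3-ITD libraries, and the gap is narrowest at the upstream start (0 bp).

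Those 5 starts are the only members that reached 1 CPM in at least 3 libraries and so entered the fit across all promoters. The choice of the gene by these values fixed their outcome, which therefore tests nothing: 5 of 5 were past the threshold of the fit as higher in the D835Y group (limma with Benjamini-Hochberg adjustment), where 14.1% of the 19162 promoters tested were past it as higher and 24.4% in either direction. The groups did not overlap at any of the 5, with D835Y higher, as at 24.2% of all tested promoters. In addition, 3 of the 5 reached the 1 CPM minimum in D835Y libraries only.

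Among the other 15 members, 4 had no tag in any library and 11 had between 1 and 31 tags over all 6 libraries. Most values of these 11 rest on a handful of tags, and all peaks together held 36010397 tags in the D835Y group against 27538403 in FLT3-ITD. The best covered was chr1:108439872-108439883 on the Bcl2 strand, 171024 bp downstream of the far edge, with 1, 0 and 2 tags in FLT3-ITD libraries and 12, 7 and 9 in D835Y libraries, or up to 0.18 against 0.50 to 1.01 CPM. Next came chr1:108608152-108608165, at 2742 bp, with 1, 0 and 2 against 8, 10 and 7 tags. Both sets of values are separate between the groups. A 0 in the shallowest library allows a level of up to 0.51 CPM, the value of 3 tags.

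Within the long body of the gene, starts were nearly silent in either group. The 10 Bcl2-strand peaks beyond 5000 bp summed to 0.27 ± 0.11 CPM for FLT3-ITD and 1.67 ± 0.53 CPM for D835Y (SD, n = 3 each), which is 8 and 58 pooled tags. Of these 10, 2 had no tag at all. As a share of all Bcl2-strand tags they made up 0.66% (exact 95% interval 0.28 to 1.29%) and 0.90% (0.68 to 1.16%) of the pooled tags, and these intervals overlap.

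On the opposite strand, transcription was barely seen. The peak chr1:108609123-108609134, 1784 bp downstream of the far edge and so inside the gene, had 0, 0 and 3 tags in the FLT3-ITD libraries and 5, 8 and 3 in the D835Y libraries. The remaining plus-strand peak, chr1:108438515-108438553, had none. No peak of either strand lies upstream of the upstream start within the window, so that no divergent start is listed in the stretch up to 108614000.

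The choice between the 2 main starts differed between the groups as well as their sum. The downstream start took 48.4, 44.3 and 48.1% of the tags of the pair in the FLT3-ITD libraries and 66.9, 64.9 and 65.6% in the D835Y libraries. Every FLT3-ITD library is below an even split and every D835Y library above it, although the exact 95% intervals of the FLT3-ITD libraries, such as 43.6 to 53.3% in replicate 1, all include 50%. The interval of the pooled FLT3-ITD tags, 44.7 to 50.5%, also includes it. For the D835Y libraries the lowest bound was 62.9%. Group means were 47.0 ± 2.3 and 65.8 ± 1.1% (SD, n = 3 each), a difference of 18.8 percentage points. The planned measure was the share of the downstream start in all Bcl2-strand tags. Its means were 45.1 ± 2.1% in FLT3-ITD and 60.6 ± 1.1% in D835Y libraries, a difference of 15.4 percentage points. The share within the pair and the ratio that follows were not planned. As a ratio within each library, which no scaling between libraries can alter, the downstream start stood at 0.94, 0.80 and 0.93 of the upstream start in FLT3-ITD cells and at 2.03, 1.85 and 1.91 in the D835Y group.

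**Figure D3:**
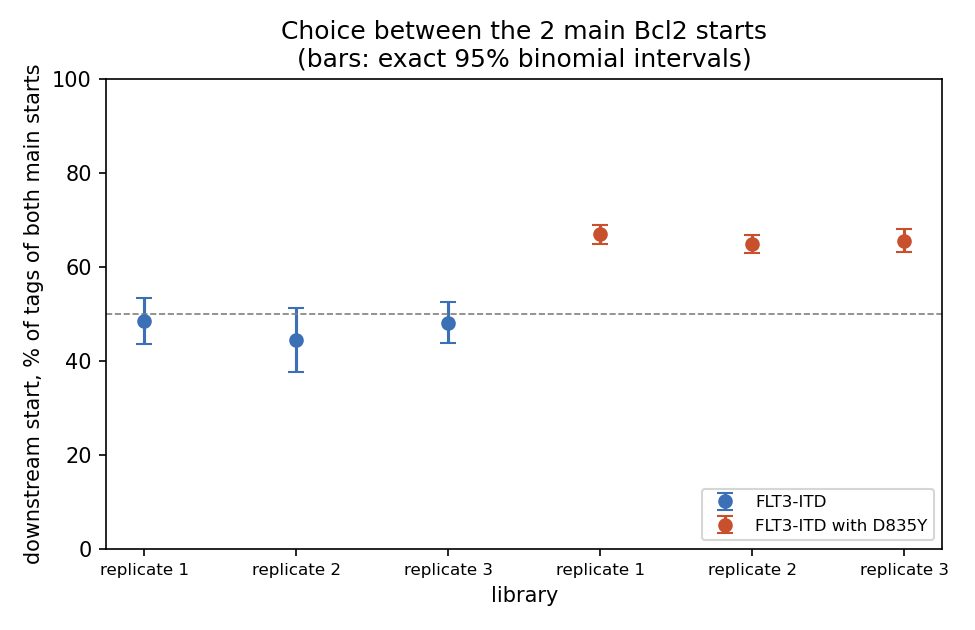
Share of the downstream start in the tags of the 2 main Bcl2 starts, in percent, for each library, with exact 95% binomial intervals (counting error only) and a dashed line at 50%. FLT3-ITD libraries lie between 44.3 and 48.4% and D835Y libraries between 64.9 and 66.9%.

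The remaining 16 peaks of the strand, summed, also had a larger share in the D835Y group. They made up 3.9 ± 0.4% of Bcl2-strand tags in FLT3-ITD cells and 8.0 ± 0.3% in the D835Y group (SD, n = 3 each), between 3.64 and 4.34% and between 7.69 and 8.31% per library. Most of these tags lay in the peaks at 406, 1874 and 1946 bp. In D835Y libraries those gave 247, 103 and 77 of 513 pooled tags, and in FLT3-ITD libraries 19, 8 and 9 of 48. The share of the peaks beyond 5000 bp had overlapping intervals, as given above. The upstream start in turn went from 51.0 ± 2.3% of Bcl2-strand tags to 31.5 ± 0.9%. Set against the upstream start within each library, the peak at 406 bp averaged 0.028 ± 0.010 in FLT3-ITD cells and 0.119 ± 0.014 in the D835Y group, and the start at 1874 bp 0.013 ± 0.005 and 0.051 ± 0.005. The start at 1946 bp, at 0.018 ± 0.014 and 0.039 ± 0.006, overlapped between the groups: its ratio was 0.0339 in both FLT3-ITD replicate 2 and D835Y replicate 2.

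Shifts of this size between neighbouring starts were uncommon but not particular to Bcl2. Only tested peaks averaging 5 CPM or more were paired, so that weaker peaks may lie between the members of a pair. Over the whole data, 1679 pairs were adjacent among these peaks on 1 strand and at most 1000 bp apart. The log2 differences of the pair's members differed by a median of 0.28, and by 1.10 for the Bcl2 pair. With Bcl2 included, 51 pairs (3.04%) differed by that much or more. In 31 pairs (1.85%) the order of the members was reversed between all FLT3-ITD and all D835Y libraries, as it was for Bcl2, and 10 pairs met both conditions. Pairs in which both members were higher by more than 1 numbered 29, and 5 of these, Bcl2 among them, had at least its shift. This comparison was added after the values had been seen and carries no test.

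**Figure D4:**
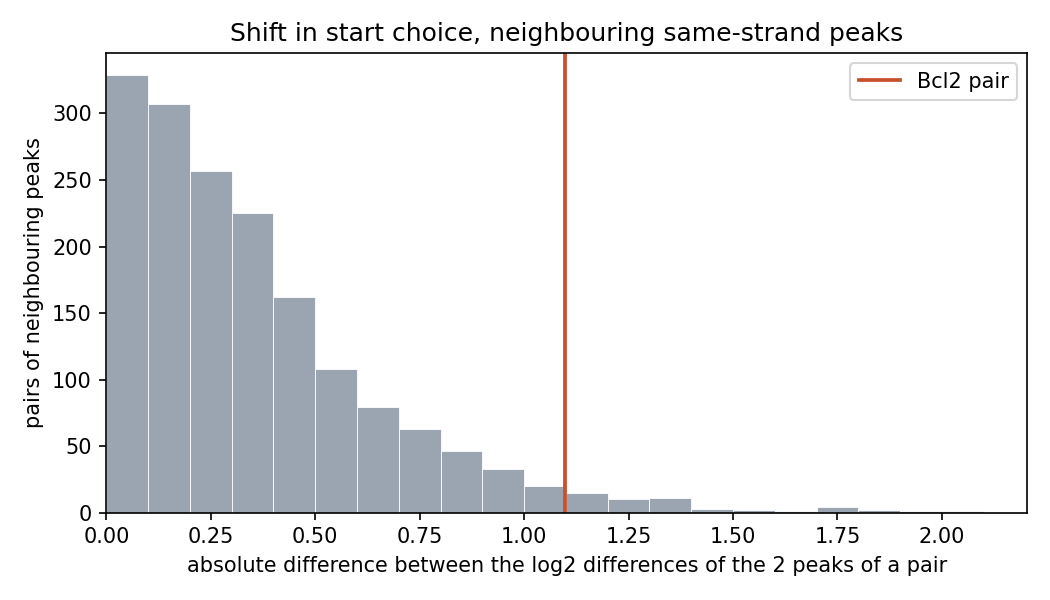
Number of pairs of same-strand peaks against the absolute difference between the log2 differences (D835Y minus FLT3-ITD) of their members. The 1679 pairs are adjacent among tested peaks averaging 5 CPM or more and at most 1000 bp apart. A line marks the Bcl2 pair. Most pairs lie far to the left of the line at 1.10.

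Few active peaks surround the gene. Within 500000 bp of the window on either side, only 5 peaks were active enough to be tested. All 5 were higher on average in the D835Y group, with a median log2 difference of 0.45 against 0.05 over all promoters tested. How many of all promoters were higher on average was not counted. Past the threshold as higher were 2 of the 5, where 14.1% of all promoters tested were, and nothing is read from so few peaks. The protein-coding genes on either side of Bcl2 in the GRCm38 order are Phlpp1, which encodes a phosphatase acting on Akt, and Kdsr, which encodes an enzyme of sphingolipid synthesis. These peaks were not matched to them. The most active, chr1:108693186-108693246 on the minus strand and 82279 bp upstream of Bcl2, measured 111.2, 117.9 and 111.6 CPM in FLT3-ITD libraries against 144.2, 170.7 and 138.8 CPM in D835Y libraries. That is a log2 difference of 0.40 (limma SE 0.11, limma adjusted p = 0.018). For flanking peaks the SE is that of the fit, whereas the SE of each named Bcl2 start rests on its own values alone. The call was lost when any 1 FLT3-ITD library was left out (adjusted p = 0.071 without replicate 1, 0.051 without replicate 2 and 0.064 without replicate 3).

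Only 1 other flanking peak passed. Beyond the 3′ end, it was the plus-strand peak chr1:108414695-108414706, 23809 bp from the nearest member. This peak had 0.10, 0 and 0 CPM in FLT3-ITD libraries and 1.09, 1.86 and 1.09 CPM in D835Y libraries (log2 difference 1.17, limma SE 0.20). It entered the fit only because it reached the minimum level in D835Y libraries, so that nothing is read from its call. Its log2 difference was 1.77 with 0.5 in place of 1 added to each CPM value. The minus-strand peak nearest to the 5′ end, chr1:108656228-108656235, had 2.58 ± 0.69 and 4.24 ± 0.72 CPM (SD, n = 3 each) and did not pass (limma adjusted p = 0.057). It passed without FLT3-ITD replicate 3 (adjusted p = 0.049) and without D835Y replicate 2 (0.032), and had an adjusted p of 0.11 to 0.20 without any 1 of the other libraries. Farther beyond the 3′ end, the plus-strand peaks at 108068350 and 108068227 had limma adjusted p values of 0.065 and 0.30.

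Promoters elsewhere followed the Bcl2 sum closely across libraries. By Pearson's r of log2 values over the 6 libraries with the Bcl2-strand sum, 656 of 10248 promoters averaging 5 CPM or more had an r of at least 0.95. With 2 groups of 3, such an r mostly restates the gap between the groups. The 5 most alike had r from 0.9981 to 0.9985. The closest was the plus-strand promoter chr13:49063736-49063799, at 9.51 ± 0.50 and 19.4 ± 1.2 CPM (SD, n = 3 each), followed by chr5:104121453-104121479 on the plus strand, at 19.7 ± 1.9 and 41.5 ± 2.7 CPM. The other three were chr14:8912829-8912899 on the plus strand, chr4:132089484-132089567 on the minus strand and chr1:137029270-137029318 on the plus strand. Their log2 differences were 0.26 to 1.04, all under those of the main Bcl2 starts, since r measures the pattern and not its size.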

How the data were processed

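The authors deposited CPM, tags scaled to a sum of 1000000 over the peaks of each library. The submitters' processing notes name TopHat2 2.0.14, edgeR 3.24.3, hg19 and mm9, without roles. Tag filters, the making of peaks and whether starts count from 0 or 1 are not given in the sources used here. Values above 0 were in all libraries (100%) whole multiples of the smallest, within 0.01 of a multiple, and these multiples are the tag numbers given. Members and lists were chosen with earlier results of these data known. Promoters with at least 1 CPM in 3 libraries (19162) were fitted with limma 3.58.1 (trend, robust) in R 4.3.3 on log2(CPM + 1), group as the only term, two-sided, with Benjamini-Hochberg adjustment at 0.05. The fit was tested on simulated data. Named are members with a mean of at least 1 CPM in either group, the 3 nearest tested flanking peaks on each side and those past the threshold, and the 5 promoters most alike. Shares and pooled ratios carry exact 95% intervals, which cover counting error only. The Bcl2 family and cell marker lists were not used, because peaks carry no gene names. TMM and RLE scaling used edgeR 4.0.16.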

Additional observations from a re-analysis of the deposited data

How the results depend on the processing

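The log2 ratio of the Bcl2-strand sum, 2.05, was 1.57 without the downstream start, an alternative chosen after seeing the data, and 1.95 to 2.15 with single libraries left out. The share of the downstream start in Bcl2-strand tags was higher by 15.4 percentage points, or 14.2 to 16.0 with a library left out, and the log2 difference in the ratio of the main starts was 1.04 to 1.16 in that case. The members past the threshold were chosen by this contrast, so their count says nothing of stability. It was 5 of 5 with any library left out (16.1 to 27.2% of all promoters passed), with TMM or RLE scaling (24.9 and 25.5%), with a pseudocount of 0.5 (24.2%) and with the replicate block, the replicate number added as a term (21.4%). It was 2 of 2 with a mean of at least 5 CPM (28.4%), where fewer were tested, and 7 of 16 with no filter (9.57%). Flanking peaks past the threshold numbered 2 of 5 (24.4% of all promoters passed) and 2 of 5 with the replicate block (21.4%). They numbered 1 of 2 among peaks averaging 5 CPM or more (28.4%) and 1 to 3 of 5 with a library left out (16.1 to 27.2%). The deviations from group means correlated at -0.01, 0.02 and 0.19 between libraries of equal replicate number. Libraries of unequal number were not set beside them, so that these values do not settle whether replicate numbers pair the libraries. Pairs with at least the Bcl2 shift numbered 26 with a mean of at least 10 CPM, of 750 pairs. The log2 differences of all 5 named starts kept their direction under all alternatives run for them. Since the gene was chosen by this contrast, that direction says nothing of stability either. A pseudocount of 0.5 raised the differences of the 3 weak starts to between 1.63 and 2.68. The planned edgeR and DESeq2 tests on tags were not run. The smallest value of D835Y replicate 3, 0.0989 CPM, lies close to a power of 10, and the criterion set beforehand for count tests refused such a step. Its values were nevertheless whole multiples of that step, as in the other libraries. Depth limits the weak starts, where 3 tags stand for 0.21 to 0.51 CPM.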

Other observations

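With no minimum level, chr1:108439872-108439883 and chr1:108608152-108608165 joined the 5 named Bcl2 starts past the threshold (limma with Benjamini-Hochberg adjustment, 7 of 16 members with a tag), where 9.57% of all 54470 peaks passed. The first lies 171024 bp downstream of the most upstream Bcl2 edge, near the 3′ end of the window, and the second 2742 bp downstream of it. As for the named starts, nothing is read from these calls.

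The 5 Bcl2-strand peaks between 1000 and 5000 bp summed to 0.78, 0.85 and 0.70 CPM in FLT3-ITD replicates 1, 2 and 3 and to 5.54, 5.87 and 5.93 CPM in D835Y replicates 1, 2 and 3. The D835Y libraries differ little among themselves and lie far above the FLT3-ITD libraries, each of which rests on 5 to 8 tags. These peaks held 1.73% (exact 95% interval 1.07 to 2.63%) of the pooled Bcl2-strand tags in FLT3-ITD cells and 3.22% (2.80 to 3.68%) in the D835Y group. Pooled tags were 21 and 208, a ratio of 7.57 (exact 95% interval 4.83 to 12.5). Most came from the starts at 1874 and 1946 bp, with 8 and 9 tags in FLT3-ITD and 103 and 77 in D835Y libraries. The sum therefore largely restates those starts.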
